A study of Mus musculus with 16 samples.

Results

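Complement transcripts were followed in adipose tissue macrophages (ATMs) through 8 genes chosen by name from the complement system, out of 37310 gene identifiers counted in the series. These were the recognition chains C1qa, C1qb and C1qc, the central components C3 and C4b, properdin (Cfp), and the anaphylatoxin receptors C3ar1 and C5ar1. The rule used their names and no measured value, and all 8 passed the filter on low counts in every comparison. RNA came from F4/80+ cells of the epididymal fat pads of C57BL/6 mice, all of them on a high-fat diet (HFD), and 16 libraries fell into 4 groups of 4. The groups were wild-type (WT) littermates after 4 weeks of HFD (short-term, ST-HFD), mice with a myeloid deletion of IRF5 (IRF5-KO) on ST-HFD, WT after 12 weeks (long-term, LT-HFD), and IRF5-KO on LT-HFD. IRF5-KO mice carried Irf5 flox/flox alleles and Cre driven from the LysM (Lyz2) locus, which acts in myeloid cells and not in macrophages alone. No chow-fed group was among these libraries, so durations of HFD were compared with each other only. The paper used male mice and gives the same range of starting ages for all experiments. Mice on LT-HFD were therefore older than those on ST-HFD, and age and duration of HFD cannot be told apart here. The labels do not say whether each library was 1 animal, and p-values measure the spread between libraries.

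Complement is a cascade of plasma proteins that tags microbes, immune complexes and dying cells and draws in phagocytes. The classical pathway starts when C1q, built from the A, B and C chains, binds its target and activates the proteases C1r and C1s, which cleave C4 and C2. All pathways meet at C3, whose fragments coat targets or, as C3a, signal through C3AR1. C5a signals through C5AR1, and properdin stabilises the C3 convertase of the alternative pathway. The liver makes most of the circulating components, whereas C1q comes largely from macrophages and dendritic cells, and fibroblasts and adipocytes also secrete C3 and other components.

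The libraries held 3279332 to 4958131 counts, and levels are given as CPM, the counts scaled to a common library size, after TMM normalisation. The targeted gene was checked first. Irf5, summed over the whole gene, was at 238 ± 23.2 CPM in WT and 262 ± 11.5 CPM in the libraries labelled IRF5-KO on ST-HFD (SD, n = 4 each). On LT-HFD it was at 193 ± 20.1 and 229 ± 26.5 CPM. Whole-gene Irf5 thus did not fall with the IRF5-KO label (log2 fold change 0.13 and 0.24, adjusted p = 0.9998 and 0.853 in edgeR), and reads per exon were not analysed here. Lyz2, the locus that carries Cre, was lower in every library labelled IRF5-KO than in every WT library, at 1757 ± 251 against 3429 ± 288 CPM on ST-HFD (adjusted p = 0.106) and 1789 ± 182 against 3673 ± 483 CPM on LT-HFD (adjusted p = 0.0484, edgeR). A plot in the study sets the Irf5 levels of the durations the other way round from the library labels used here, so every direction between durations rests on those labels. Adgre1, which encodes F4/80, was at 507 to 995 CPM over the 16 libraries. All 8 macrophage markers of a fixed list were detected, Mrc1 the most at a mean of 2186 CPM. Markers of other cells were also summed per library. A list of 12 fibroblast and preadipocyte markers, led by Gsn at a mean of 2527 CPM, ranged over 1378 to 2862 CPM in the ST-HFD libraries and 5747 to 18922 CPM in the LT-HFD libraries, the highest sum being in WT LT-HFD replicate 4. Monocyte markers (led by Fn1, mean 1068 CPM) summed to 1286 to 2252 CPM in ST-HFD libraries and 512 to 1095 CPM in LT-HFD libraries. Most of this sum was Fn1, at 1070 to 2021 CPM in ST-HFD libraries and 356 to 873 CPM in LT-HFD libraries. Of the 6 tested monocyte markers, 3 had positive and 3 negative log2 fold changes with duration in each genotype (median 0.49 in WT and 0.38 in IRF5-KO). Sums over all 16 libraries were 21.7 to 56.8 CPM for adipocytes (led by Lipe), 4.68 to 28.6 CPM for mesothelium (Wt1), 22.6 to 118 CPM for endothelium (Tek) and 26.3 to 159 CPM for dendritic cells (Cd209a). They were 2.81 to 9.83 CPM for B cells (Cd79b), 3.21 to 32.2 CPM for T and NK cells (Cd4), 1.70 to 27.4 CPM for mast cells (Tpsb2) and 0 to 3.80 CPM for neutrophils (S100a9), of which Ly6g and Camp had no count.

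The C1q chains are encoded next to each other on the minus strand of chromosome 4 in GRCm38, C1qb from 136880129 to 136886187, C1qc from 136889804 to 136893065 and C1qa from 136895917 to 136898803. C4b lies on chromosome 17 from 34728380 to 34743882 and C3 on the same chromosome from 57203970 to 57228136, where it overlaps the microRNA gene Mir6978 on the same strand. C3ar1 is on chromosome 6 from 122847138 to 122856161, C5ar1 on chromosome 7 from 16246743 to 16259540 and Cfp on X from 20925454 to 20931555, all on the minus strand. Upstream sequence is shown for a pair of neighbouring C1q genes, which moved together across libraries, and for C3, which rose with duration. The stretches come from the 250 bases before the RefSeq start in GRCm38.p6 and do not reach into a GENCODE exon. They are written 5′ to 3′ on the gene's strand, and capitals mark a match to a motif searched on both strands. RefSeq promoters were matched for 6 of the 8 members, and C1qa and C4b are named only.
C1qb (chr4:136886201-136886450): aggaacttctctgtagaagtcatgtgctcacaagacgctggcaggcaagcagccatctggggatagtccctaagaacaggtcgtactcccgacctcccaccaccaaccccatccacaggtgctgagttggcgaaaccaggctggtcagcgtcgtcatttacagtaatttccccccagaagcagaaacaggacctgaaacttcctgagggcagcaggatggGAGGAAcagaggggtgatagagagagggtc
C1qc (chr4:136893066-136893164): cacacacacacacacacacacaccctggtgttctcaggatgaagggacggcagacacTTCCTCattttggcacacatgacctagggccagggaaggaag
C3 (chr17:57228137-57228386): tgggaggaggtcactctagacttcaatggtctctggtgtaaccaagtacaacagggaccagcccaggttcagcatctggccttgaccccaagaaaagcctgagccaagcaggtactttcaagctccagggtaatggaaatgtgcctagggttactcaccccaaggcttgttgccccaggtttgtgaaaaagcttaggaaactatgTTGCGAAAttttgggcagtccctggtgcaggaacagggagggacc
In C1qb the capitals are the PU.1 core GAGGAA, 30 bases before the start, and in C1qc the same core on the other strand, 193 bases before the start. PU.1 is a transcription factor of the myeloid lineage, and 23.3% of 32851 RefSeq promoters of the same length hold this core. In C3 they are the C/EBP motif TTNNGCAA, read on the other strand 45 bases before the start, which 9.56% of promoters hold. The C3ar1 promoter held the AP-1 motif TGANTCA 22 bases before its start, as 6.75% of promoters do. None of the 6 promoters held the IRF motif (GAAA, any 2 bases, GAAA; 2.98% of promoters), the NF-kB motif GGGNNTTCC (4.98%) or the GAS motif TTCNNNGAA (7.02%), which says only that these letters were not in the window. A match is a description of letters, not a bound site.

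Per kb of all annotated exon of the gene, the C1q chains were the most abundant members in all 4 groups. In WT ST-HFD, C1qa stood at 1324 ± 176 CPM per kb of exon and C1qb at 1283 ± 105, and their ranges overlapped. C1qc followed at 755 ± 95.1 CPM per kb, below every library of C1qb. This place depends on the exon length used, 1931 bases for C1qc against 1088 for C1qb. In CPM alone, C1qc stood at a mean of 1458 and C1qb at 1396. C4b came next at 209 ± 22.1, then Cfp at 156 ± 18.1, C5ar1 at 116 ± 4.39, C3ar1 at 84.1 ± 14.1 and C3 at 54.8 ± 10.0 CPM per kb, with no overlap between neighbours from C1qb down. In IRF5-KO ST-HFD the order of means was the same, but C4b and Cfp, Cfp and C5ar1, and C3ar1 and C3 overlapped. On LT-HFD the chains kept the top places without overlapping the rest, and the other 5 members lay close together. Their means were 95.3 to 158 CPM per kb in WT and 99.5 to 116 in IRF5-KO, each neighbour overlapping the next.

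**Figure D1:**
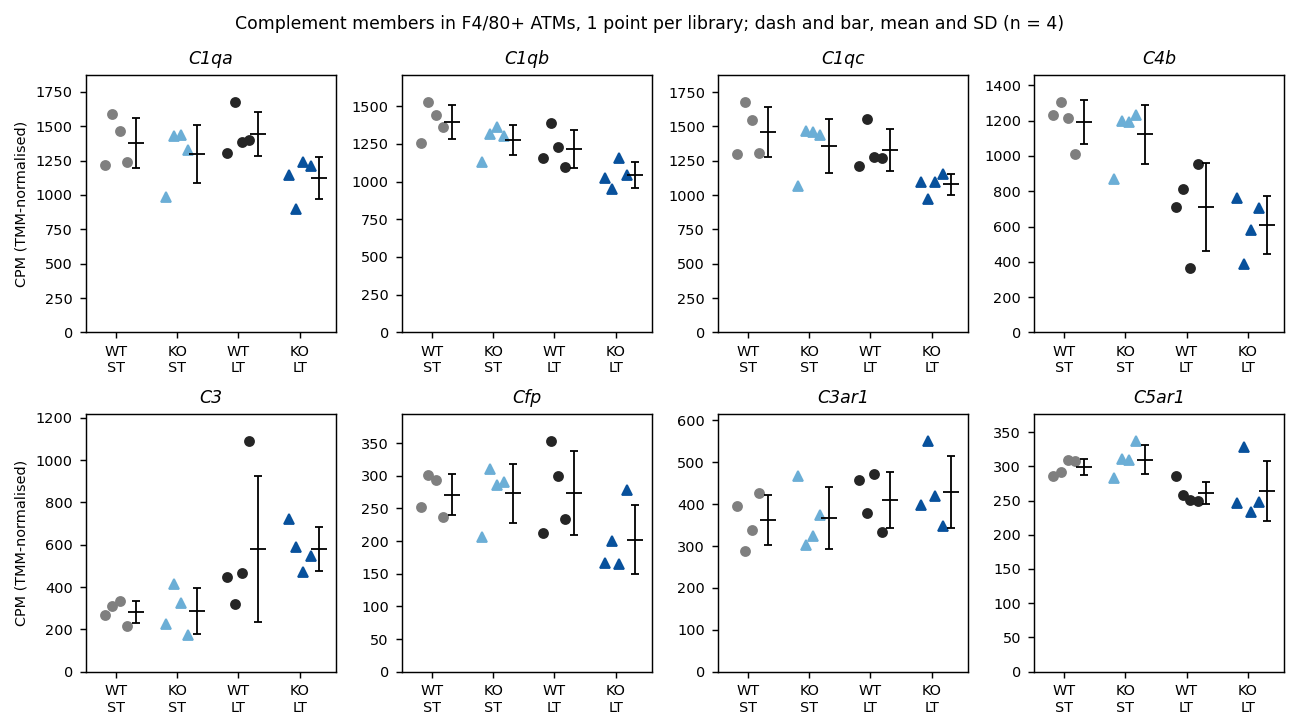
CPM (y axis, from 0) of each member in every library (points, 4 per group, WT circles and IRF5-KO triangles) on ST-HFD and LT-HFD, with the group mean and SD beside them. C4b is lower and C3 higher on LT-HFD, C3 in WT LT-HFD reaches 1088 CPM in replicate 4, and the C1q chains are lowest in IRF5-KO LT-HFD.

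The first comparison asked whether complement transcripts differed between genotypes after 4 weeks of HFD. No member passed the test on ST-HFD, and the 2 genotypes overlapped for all 8. C1qa was at 1214, 1592, 1468 and 1236 CPM in WT replicates 1 to 4 and 987, 1430.5, 1433 and 1328 CPM in IRF5-KO. IRF5-KO replicate 1 was the lowest of the 8 libraries. C1qb gave the smallest unadjusted p of the members, with 1396 ± 114 CPM in WT and 1277 ± 101 CPM in IRF5-KO (log2 fold change -0.13, 95% interval -0.36 to 0.093). The 8 log2 fold changes ran from -0.13 to 0.046, all at an adjusted p of 0.9998 in edgeR, and 0 of 8 were under an unadjusted p of 0.05, where 1.84% of 10958 genes were. DESeq2 also called 0. Over all genes 0.00913% were called at the adjusted threshold, and 1.47% did not overlap between genotypes. The intervals were narrowest for C5ar1 (-0.15 to 0.24) and widest for C3 (-0.52 to 0.52).

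After 12 weeks of HFD the C1q chains were lower on average in IRF5-KO, but no member passed the test. C1qa was at 1307, 1675, 1385 and 1397 CPM in WT and 1148, 899, 1236 and 1208 CPM in IRF5-KO. Every IRF5-KO library was below every WT library. The log2 fold change was -0.37 (SE 0.13, 95% interval -0.66 to -0.074, unadjusted p = 0.0182, adjusted p = 0.853, edgeR). C1qc, the third chain of the C1q trimer, was at 1209.9, 1554, 1276 and 1273 CPM in WT and 1095, 973, 1093 and 1150.3 CPM in IRF5-KO, again without overlap. Its log2 fold change was -0.31 (SE 0.12, interval -0.57 to -0.048, unadjusted p = 0.0241, adjusted p = 0.853, edgeR). C1qb was at 1159, 1389.9, 1228 and 1095 CPM in WT and 1024, 951, 1156 and 1042 CPM in IRF5-KO, and the groups overlapped (log2 fold change -0.23, interval -0.49 to 0.029). These 2 members without overlap, of 8, stand beside 1.67% of all 10987 genes that lay wholly lower in IRF5-KO.

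Properdin (Cfp), the positive regulator of the alternative pathway, was at 212, 353, 299.6 and 233 CPM in WT LT-HFD and 166, 200.3, 164 and 278 CPM in IRF5-KO LT-HFD. In IRF5-KO 3 libraries lay below all WT libraries and replicate 4 lay among them. Its log2 fold change was -0.44 (SE 0.20, interval -0.88 to -0.0059, unadjusted p = 0.0475, adjusted p = 0.853, edgeR). C4b (-0.23, interval -0.82 to 0.36), C3ar1 (0.059, interval -0.30 to 0.42) and C5ar1 (0.011, interval -0.27 to 0.30) gave log2 fold changes with intervals on both sides of 0. For C3, mean levels were alike, 581 ± 344 CPM in WT and 581 ± 104 CPM in IRF5-KO, with an interval of -0.68 to 0.68 on the log2 scale. C3 gave 0.49 on the log2 scale once WT replicate 4 was left out (adjusted p = 0.456, edgeR). In all, 0 of 8 members were called by edgeR or DESeq2, where 0.0182% of genes were called by edgeR. At an unadjusted p under 0.05, 3 of 8 were lower and none higher in edgeR (C1qa, C1qc and Cfp), beside 3.5% of all genes lower, and 4 were lower in DESeq2, which added C1qb. Without WT replicate 2 none of the 8 had an unadjusted p under 0.05 in edgeR, and without WT replicate 4 C1qb joined the 3 lower members and C3 was higher. The median log2 fold change was -0.23 over the members and 0.00042 over all tested genes. Macrophage markers summed to 4399 to 5412 CPM in WT and 3965 to 4444 CPM in IRF5-KO on LT-HFD, and 0 of the 8 were called. Of these 8, 4 had positive and 4 negative log2 fold changes (median -0.018). At an unadjusted p under 0.05, 1 was higher and 2 lower (edgeR), beside 245 and 384 of 10987 genes. Dendritic cell markers summed to 57.9 to 155 CPM in WT and 26.3 to 95.8 CPM in IRF5-KO, with 4 of 4 tested negative. Monocyte markers summed to 695 to 1095 CPM in WT and 512 to 743 CPM in IRF5-KO, with 5 of 6 tested negative. The part of these cells in the lower C1q values was not tested, and in bulk RNA fewer cells of a type and less RNA per cell cannot be told apart.

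**Figure D2:**
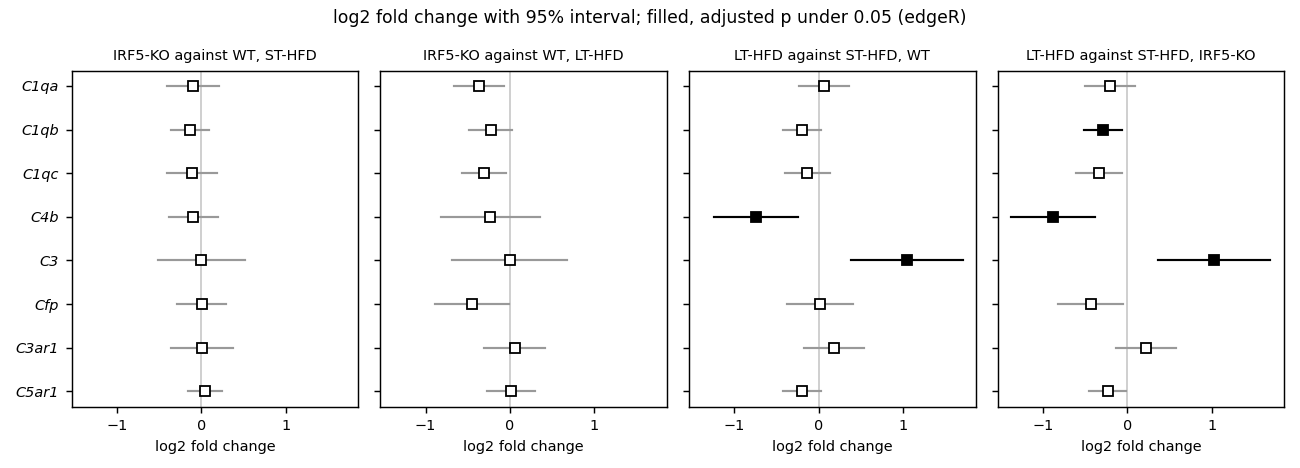
log2 fold change (x axis) with its 95% interval for the 8 members (y axis) in the 4 comparisons, from edgeR, filled where the adjusted p was under 0.05. Both genotype panels hold open symbols only, C3 and C4b are filled in both duration panels on opposite sides of 0, and C1qb is filled in IRF5-KO only.

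The largest changes among the members came with diet duration, and they went in opposite directions for C3 and C4b. C3, the component on which all pathways converge, was at 266, 310.2, 334 and 217 CPM in WT ST-HFD and 449, 319, 467 and 1088 CPM in WT LT-HFD. The groups overlapped, since LT-HFD replicate 2 lay within the ST-HFD range, and replicate 4 stood at more than the other LT-HFD libraries. C3 rose by 1.04 on the log2 scale in WT (SE 0.32, interval 0.38 to 1.71, adjusted p = 0.0212, edgeR). Without WT LT-HFD replicate 4 the difference was 0.55 and did not pass (adjusted p = 0.133, edgeR), and it also failed the test without WT ST-HFD replicate 1 (adjusted p = 0.0505) or replicate 4 (adjusted p = 0.0614). In IRF5-KO, C3 was at 223, 416, 326 and 173 CPM on ST-HFD and 719.6, 588, 472 and 545 CPM on LT-HFD, with no overlap. The log2 fold change was 1.03 (SE 0.32, interval 0.37 to 1.70, adjusted p = 0.0184, edgeR), and 0.85 and 0.91 without ST-HFD replicate 4 or LT-HFD replicate 1 (adjusted p = 0.0584 and 0.0543).

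Fibroblast markers moved with C3. All 12 markers had positive log2 fold changes with duration in both genotypes, and none was without a count. At an adjusted p under 0.05 (edgeR), 11 were higher in WT and 10 in IRF5-KO, beside 12.1% and 15.6% of all genes. The WT LT-HFD library with the most C3, replicate 4, also had the highest marker sum, 18922 CPM against 5979 to 6625 CPM in the other 3. In IRF5-KO LT-HFD, replicate 1 had both the most C3 (720 CPM) and the highest sum (13478 CPM), while replicate 2 had the lowest sum (5747 CPM) and the second most C3 (588 CPM). In IRF5-KO ST-HFD the same library, replicate 4, was lowest in both. The part of these cells in the C3 difference was not tested.

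**Figure D3:**
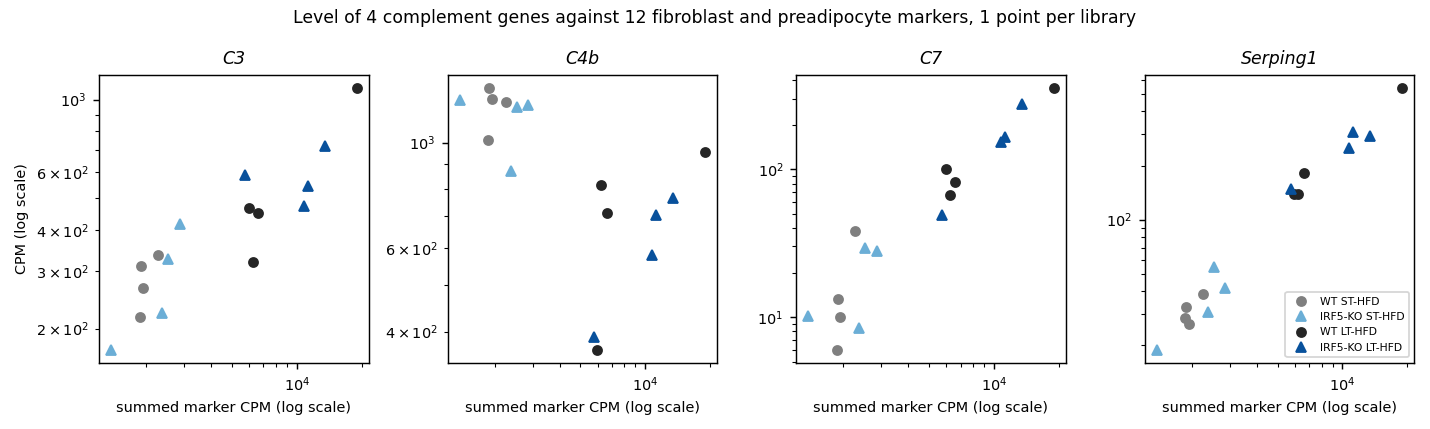
CPM of C3, C4b, C7 and Serping1 (y axis, log scale) against the summed CPM of 12 fibroblast and preadipocyte markers (x axis, log scale), 1 point per library. WT LT-HFD replicate 4, at 18922 CPM of markers, has the most C3, C7 and Serping1, whereas C4b is lower in LT-HFD than in ST-HFD libraries of the same genotype.

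C4b, the component cleaved by C1s in the classical pathway, fell with duration in both genotypes. In WT it was at 1234, 1305, 1214 and 1012 CPM on ST-HFD and 709.7, 813, 367 and 956 CPM on LT-HFD. Every LT-HFD library was below every ST-HFD library, replicate 3 the lowest of all 16. C4b fell by 0.74 on the log2 scale in WT (SE 0.24, interval -1.24 to -0.25, adjusted p = 0.0282, edgeR). The adjusted p was 0.0526 to 0.0638 when any 1 of WT ST-HFD replicates 1, 2 or 3 or WT LT-HFD replicates 1 or 3 was left out. In IRF5-KO it was at 869, 1199, 1191 and 1229.6 CPM on ST-HFD and 762, 389.8, 580.1 and 704 CPM on LT-HFD, again without overlap. The fall was 0.88 on the log2 scale (SE 0.24, interval -1.38 to -0.38, adjusted p = 0.00878, edgeR), and it passed the test without any 1 of the 16 libraries. C4a, a near-identical copy, held 50 counts in all 16 libraries together, so reads that the authors' counting split or dropped between the copies cannot be seen here.

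Among the C1q chains, C1qb was lower on LT-HFD in IRF5-KO. It was at 1131, 1313, 1364 and 1302 CPM on ST-HFD and 1024, 951, 1156 and 1042 CPM on LT-HFD, and the ranges overlapped between LT-HFD replicate 3 and ST-HFD replicate 1. C1qb fell by 0.29 on the log2 scale (SE 0.11, adjusted p = 0.0443, edgeR), a call lost in 9 of the 16 fits without 1 library (adjusted p up to 0.110), in the fit of the 8 IRF5-KO libraries alone (adjusted p = 0.0816) and with no filter on low counts (adjusted p = 0.101). C1qc gave a log2 fold change of -0.33 in IRF5-KO (interval -0.60 to -0.066, adjusted p = 0.0526, edgeR) and was called by DESeq2 (adjusted p = 0.0241). C1qa gave -0.21 (interval -0.51 to 0.095). In WT, C1qa, C1qb and C1qc gave log2 fold changes of 0.065, -0.20 and -0.13, with intervals of -0.23 to 0.37, -0.42 to 0.028 and -0.40 to 0.13. Macrophage markers summed to 5256 to 6255 CPM in ST-HFD libraries and 3965 to 5412 CPM in LT-HFD libraries. At an adjusted p under 0.05 (edgeR), 2 of the 8 markers were lower in WT, beside 13.2% of all genes. In IRF5-KO 3 were higher and 3 lower, beside 15.6% and 17.2% of all genes. The part of these cells in the falls of C4b and C1qb was not tested.

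The proportions of the chains were close to equal in counts. C1qa made up 31.6% to 33.2% of the C1q counts in WT ST-HFD and 35.6% to 37.1% in WT LT-HFD, with no overlap. In IRF5-KO its share was 31.0% to 34.0% in ST-HFD libraries and 31.9% to 35.5% in LT-HFD libraries, which overlapped. C1qb took 31.8% to 34.8% in WT ST-HFD and 29.1% to 31.6% in WT LT-HFD.

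Neither receptor was called with duration. C5ar1, which binds C5a, was at 286, 292, 309 and 308 CPM in WT ST-HFD and 285, 259, 251 and 249 CPM in WT LT-HFD. The durations did not overlap, but the difference did not pass (log2 fold change -0.19, interval -0.42 to 0.027, adjusted p = 0.198, edgeR). In IRF5-KO it was at 283, 311, 309 and 336 CPM on ST-HFD and 247, 328, 233 and 247 CPM on LT-HFD, replicate 2 standing above the others (log2 fold change -0.23, adjusted p = 0.101, edgeR). Without LT-HFD replicate 2 the log2 fold change was -0.36 and passed (adjusted p = 0.00752). Neutrophils also carry C5AR1, and the 8 neutrophil markers summed to 0 to 3.80 CPM over the libraries, with Ly6g and Camp at 0 and S100a9 and Ltf reaching 1.63 and 1.67 CPM. Their part in the C5ar1 values was not tested. C3ar1, the receptor of C3a, was at 362 ± 60.5 CPM in WT ST-HFD and 410.3 ± 66.3 CPM in WT LT-HFD (log2 fold change 0.18, interval -0.18 to 0.54). In IRF5-KO it was at 367 ± 73.4 and 429 ± 86.4 CPM (log2 fold change 0.22, interval -0.13 to 0.58). Cfp was at 206, 309.7, 285 and 291 CPM in IRF5-KO ST-HFD, and overlapped the LT-HFD values given above (log2 fold change -0.43, interval -0.82 to -0.046, adjusted p = 0.0809, edgeR). Without IRF5-KO ST-HFD replicate 1 or LT-HFD replicate 4 it was -0.55 or -0.63 and passed (adjusted p = 0.0331 and 0.0131). In WT it gave 0.018 (interval -0.37 to 0.40).

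In all, 2 of 8 members were called with duration in WT, C3 higher and C4b lower, where 25.3% of 11560 genes were called, 12.1% higher and 13.2% lower. In IRF5-KO 3 of 8 were called, C3 higher and C4b and C1qb lower, where 32.8% of genes were, 15.6% higher and 17.2% lower. Between durations 2 members did not overlap in WT (C4b and C5ar1) and 2 in IRF5-KO (C3 and C4b), where 26.1% and 29.4% of genes did not. These shares of members are near the background. With library size alone as the scaling, 1002 genes were higher and 1858 lower in WT, in place of 1401 and 1527.

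The difference of the genotype effects between durations was tested for each member in one model. No member was called by edgeR, 0 of 8 had an unadjusted p under 0.05 where 3.93% of genes did, and DESeq2 also called 0. In edgeR 0% of genes were called at the adjusted threshold. The smallest unadjusted p was that of Cfp, 0.0999 (log2 difference -0.45, interval -0.9995 to 0.096, adjusted p = 0.969). C1qa gave -0.27 (interval -0.69 to 0.15), so the lower C1qa of IRF5-KO on LT-HFD was not shown to differ from the ST-HFD contrast.

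The rest of the pathway was read from a list of 48 other complement genes, 20 of which passed the filter over 16 libraries. Mbl1, Mbl2, C8a, C8b and C4bp, which encode mainly liver-made proteins, had no count. Abundant genes of the list were Fcna (ficolin A, a recognition protein of the lectin pathway, 260 CPM on average), C7 of the terminal complex (86.8 CPM), Cr1l (Crry, the rodent membrane regulator, 32.5 CPM) and Itgb2 (the beta chain of complement receptor 3, 588 CPM).

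With duration, 7 of the 20 rose and 1 fell in WT, beside 12.1% of all genes higher and 13.2% lower. In IRF5-KO 6 rose and 2 fell, beside 15.6% higher and 17.2% lower. The proteases of the C1 complex rose in both. C1ra was at 16.6, 17.4, 15.7 and 12.3 CPM in WT ST-HFD and 45.3, 49.6, 52.3 and 158 CPM in WT LT-HFD (log2 fold change 2.31, adjusted p = 0.000285, edgeR), and gave 2.14 in IRF5-KO (adjusted p = 0.000408). C1s1 gave 3.19 in WT and 2.95 in IRF5-KO (adjusted p = 5.88e-05 and 7.50e-05, edgeR). Serping1, the inhibitor of both proteases, was at 26.1, 32.7, 38.7 and 28.3 CPM in WT ST-HFD and 182, 139.8, 138 and 543 CPM in WT LT-HFD, and rose by 2.999 in WT and 2.78 in IRF5-KO on the log2 scale (adjusted p = 5.46e-05 and 7.10e-05). C7 rose by 3.20 and 3.09 (adjusted p = 0.00163 and 0.00163). Reads of C1ra and C1s1 may be shared with their near-identical copies C1rb and C1s2, so their values are uncertain to that extent. Vitronectin (Vtn), a soluble inhibitor of the terminal complex, reached at most 34.3 CPM and rose by 3.58 and 2.81 (adjusted p = 0.00063 and 0.00230).

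WT LT-HFD replicate 4 carried the most of all 5 of these genes. Without it their log2 fold changes in WT were 1.67 for C1ra, 2.35 for C1s1, 2.34 for C7, 2.29 for Serping1 and 2.44 for Vtn, all past the threshold. C7 also gave 3.97 without WT ST-HFD replicate 3, and Vtn 3.48 in IRF5-KO without IRF5-KO ST-HFD replicate 1. Among these genes and the members, the fibroblast marker sums moved with the rises as they did with C3, and their part was not tested. The median log2 fold change over the 20 genes was 0.019 in WT and 0.16 in IRF5-KO, against 0.024 and 0.043 over all genes tested.

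Among membrane regulators and receptors, Cd55 and Cr1l rose and Itgam fell in WT. Cd55, which speeds the decay of convertases, was at 7.61, 6.73, 10.9 and 3.77 CPM in WT ST-HFD and 10.9, 20.6, 64.8 and 46.8 CPM in WT LT-HFD, and rose in WT (log2 fold change 2.32, adjusted p = 0.00797, edgeR). In IRF5-KO it gave 0.41 (adjusted p = 0.613), and 1.26 without IRF5-KO ST-HFD replicate 2 (adjusted p = 0.101). For Cd55 the test of the difference between genotypes did not pass (adjusted p = 0.969). Cr1l rose by 0.49 in WT and 0.38 in IRF5-KO (adjusted p = 0.0129 and 0.0415, edgeR). The call in IRF5-KO was lost in DESeq2 (0.0599) and with library size alone (0.0937), as was that in WT with the latter (0.0654). Itgam, the alpha chain of complement receptor 3, was at 682, 533, 598 and 701 CPM in WT ST-HFD and 466, 431, 459.8 and 348 CPM in WT LT-HFD, without overlap. It fell by 0.56 in WT and by 0.59 in IRF5-KO on the log2 scale (adjusted p = 0.00320 and 0.00173, edgeR). Its partner Itgb2 gave -0.36 and -0.22 and was not called. C6 fell in IRF5-KO (-0.91 on the log2 scale, adjusted p = 0.0143), and without IRF5-KO ST-HFD replicate 2 it gave -0.63 (adjusted p = 0.0673). Fcna gave 0.37 in WT and -0.49 in IRF5-KO, with neither called.

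**Figure D4:**
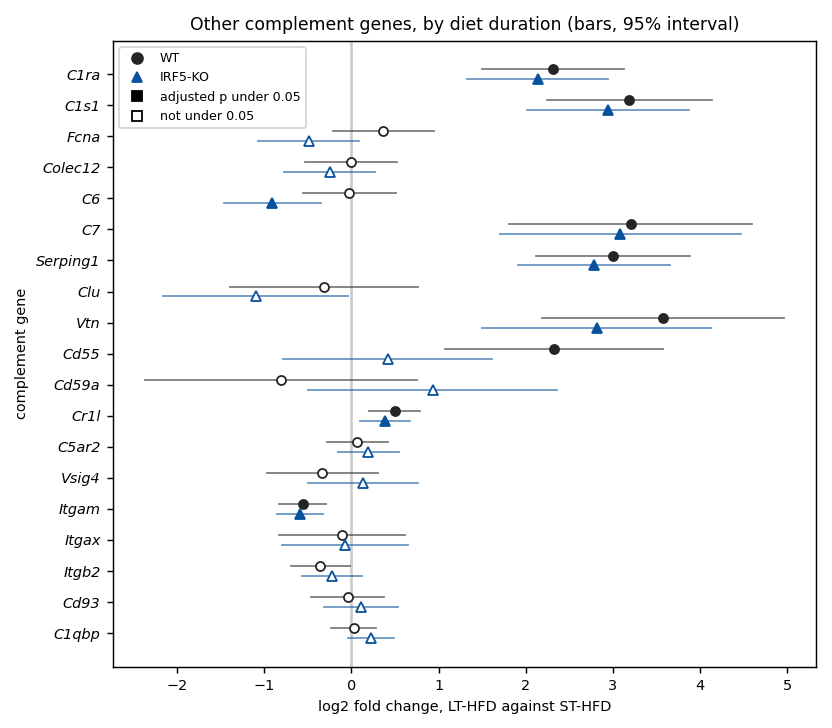
log2 fold change of LT-HFD against ST-HFD (x axis) with its 95% interval for the other complement genes described (y axis), WT circles and IRF5-KO triangles, filled where the adjusted p was under 0.05 in edgeR. C1ra, C1s1, C7, Serping1 and Vtn lie beyond 2 in both genotypes, Itgam lies below 0 in both, and most others lie near 0.

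Between genotypes, none of the wider list was called. On ST-HFD 0 of 18 tested genes had an unadjusted p under 0.05 in edgeR, beside 1.84% of all genes, and DESeq2 called 0. On LT-HFD 0 of 19 were called by edgeR or DESeq2, and 4 had an unadjusted p under 0.05, 3 lower and 1 higher, beside 384 lower and 245 higher of 10987 genes. C6 was at 15.7, 24.5, 13.9 and 19.3 CPM in WT and 11.3, 8.40, 11.2 and 11.1 CPM in IRF5-KO (log2 fold change -0.80, unadjusted p = 0.00315, adjusted p = 0.853, edgeR). It was lower in every IRF5-KO library than in every WT library. Fcna gave -0.73 (unadjusted p = 0.0329), and Cd59a, at most at 5.96 CPM, gave 1.41 (unadjusted p = 0.0273). Cd59a, which has the near-identical copy Cd59b, was named after its value was seen.

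Within groups some of the 28 pairs of members varied together and others did not. After each group's mean was taken out of the log2 CPM, C1qa and C1qc gave r = 0.956 across the 16 libraries, C1qa and C1qb 0.876, and C1qb and C1qc 0.847. C3ar1 ran the other way, with r = -0.837 to C1qa, -0.791 to C1qc and -0.758 to C4b. Cfp and C1qc gave 0.722. C3 gave 0.102 to C1qa and 0.061 to C1qc, and C5ar1 gave between -0.294 and 0.364 to the other 7 members. Libraries that were low in C1q and high in C3ar1 appeared in both durations. IRF5-KO ST-HFD replicate 1 had the least C1qa (987 CPM) and the most C3ar1 (467 CPM) of the ST-HFD libraries, and IRF5-KO LT-HFD replicate 2 had the least C1qa (899 CPM) and the most C3ar1 (549.8 CPM) of all 16. These coefficients describe 16 libraries that share a sort and a scaling.

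**Figure D5:**
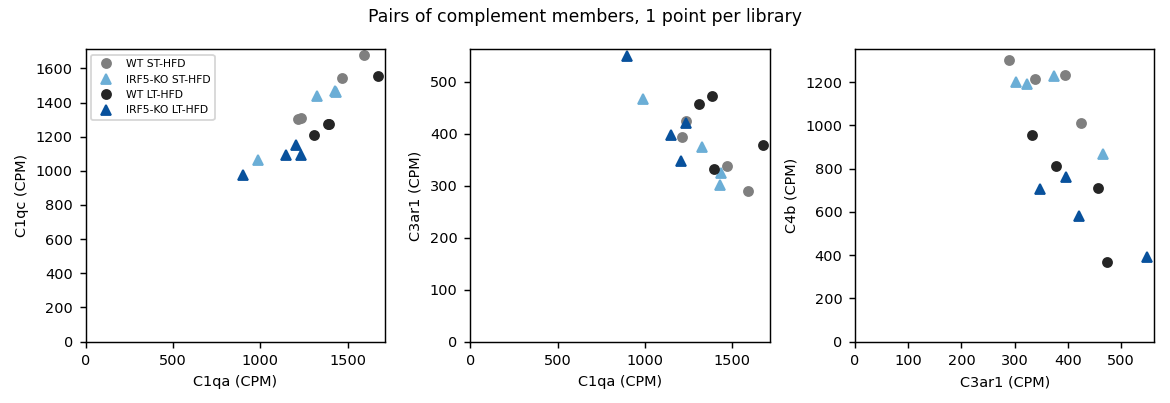
CPM of C1qc against C1qa, C3ar1 against C1qa and C4b against C3ar1, 1 point per library, axes from 0. C1qa and C1qc rise together across the libraries, while the library with the most C3ar1 (549.8 CPM) has the least C1qa (899 CPM).

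By the same measure over 11559 other genes, the closest to C1qa were C1qc (r = 0.956), Lbr (0.923) and Lifr (0.921). Those closest to C1qb were Rbl2 (0.888), 4933439C10Rik (0.879) and C1qa (0.876), and to C1qc they were C1qa, Fam46a (0.914) and Cep68 (0.911). For C3 they were Spats2l (0.920), Rbfox2 (0.918) and Slit3 (0.905), and for C4b Krt80 (0.910), C030046I01Rik (0.905) and Stx2 (0.900). C3ar1 had the highest coefficients, with Alcam (0.982), Vdac2 (0.970) and Ckb (0.966). C5ar1 was closest to Rsrc1 (0.911), Nudc (0.897) and Rpl28 (0.8289), and Cfp to Ppargc1b (0.948), Bst2 (0.907) and 2210411K11Rik (0.886).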

How the data were processed

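F4/80+ ATMs were sorted by the authors with microbeads, and their total RNA was made into strand-specific libraries, with ribosomal sequences removed after cDNA amplification. Per the labels, reads were trimmed with fastp 0.19.11 and aligned with STAR 2.7.3a. The deposited values are whole-number counts per gene, without normalisation. The 3 most counted features were mmu-mir-689-2 and the mitochondrial ribosomal RNAs mt-Rnr2 and mt-Rnr1. Together they held 18.6% to 24.1% of the counts in ST-HFD libraries and 26.1% to 34.5% in LT-HFD libraries, without overlap. The annotation and the strand setting of the counting are not given in the sources used here, and the labels list mm9 beside mm10.

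Counts were fitted in R 4.3.3 with edgeR 4.0.16 (filterByExpr, TMM, glmQLFit, glmQLFTest), with Benjamini-Hochberg adjustment over all tested genes and calls at an adjusted p under 0.05. Genotypes were compared in the 8 libraries of each duration. Durations and the interaction were fitted over all 16. CPM used TMM factors, and CPM per kb divided by GENCODE vM21 exon length, in which 32620 identifiers were found. Likeness was Pearson's r of log2 CPM, with 0.5 added to each count before scaling, after the group mean was removed. Each fit was tested on simulated data. Alternatives were DESeq2 1.42.0, other scaling, no filter, the 3 most counted features left out, other sets of libraries, the replicate number as a block, and each library left out. Of 120 pairs of libraries none agreed within counting noise.

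Same-numbered libraries of both genotypes deviated together on ST-HFD (r = 0.348, 0.472, 0.172 and 0.295 over 9765 genes, with differently numbered libraries up to 0.449), but not in every pair of the other comparisons. The values reported come from fits without the block, which was tried as an alternative in each comparison. The members and lists were chosen with earlier results of these data known. Text named all members, Irf5, Lyz2 and Adgre1, wider-list genes called in any comparison, the most abundant gene of each list, genes without a count, and the 3 genes most like each member. Some genes of the wider list are counted in its totals but not reported here.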

Additional observations from a re-analysis of the deposited data

Results flagged for a closer look

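In 32 groups of 4 libraries, 8 members in 4 groups, the distance of the highest or lowest library from its nearest neighbour was divided by the range of the group. Chance alone puts about 1 in 20 groups above Dixon's 95% critical value for 4 samples, and 3 groups were above it. C1qc in IRF5-KO ST-HFD gave 0.922, with replicate 1 at 1066 CPM below the other libraries at 1437 to 1469 CPM. C4b in the same group gave 0.892, and the low library was again replicate 1, at 869 CPM against 1191 to 1229.6 CPM. C5ar1 in IRF5-KO LT-HFD gave 0.845, with replicate 2 at 328 CPM above the others at 233 to 247 CPM.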

How the results depend on the processing

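No member and no gene of the wider list was called between genotypes or in the interaction under any alternative, leaving out each library included. With duration in WT, 2 to 3 members were called under the other settings (2 in the report) and 0 to 2 with 1 library left out. With duration in IRF5-KO, 2 to 5 were called (3 in the report), 5 of them with library size alone, and 1 to 5 with 1 library left out. The wider list gave 7 to 8 calls in WT and 7 to 9 in IRF5-KO under the other settings, and 8 to 9 and 6 to 9 with 1 library left out. The replicate block changed no call of a member, and Cr1l in IRF5-KO gave an adjusted p of 0.0602 under it and up to 0.131 with 1 library left out. Library size alone added C1qb in WT (adjusted p = 0.0431) and C1qc and Cfp in IRF5-KO (adjusted p = 0.0239 and 0.0417, edgeR).

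With all libraries kept, log2 fold changes that changed sign were uncalled and lay between -0.079 and 0.20, and the cause was not tested. Between genotypes on ST-HFD, library size alone gave -0.023 for C3, -0.0099 for C3ar1 and -0.017 for Cfp, no filter gave -0.0049 for C3 and -0.0034 for Cfp, and the replicate block gave -0.054 for C3 and -0.0043 for Cfp. On LT-HFD, C3 gave 0.028 with library size alone, 0.0043 with no filter, 0.15 with the block and 0.00040 over 16 libraries, and C5ar1 gave -0.0018 with the block. With duration in WT, library size alone gave -0.028 for C1qa and -0.079 for Cfp, which gave -0.0014 with no filter and -0.00076 with the block. In the interaction, library size alone gave 0.051 for C3 and 0.023 for C5ar1, and the block gave 0.20 for C3.

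With 1 library left out, ranges that crossed 0 were as follows. On ST-HFD between genotypes they were -0.15 to 0.0100 for C1qa, -0.24 to 0.18 for C3, -0.16 to 0.0078 for C4b, -0.13 to 0.10 for C3ar1, -0.0016 to 0.082 for C5ar1 and -0.058 to 0.11 for Cfp. On LT-HFD they were -0.20 to 0.49 for C3, -0.093 to 0.15 for C3ar1 and -0.12 to 0.074 for C5ar1. With duration in WT they were -0.016 to 0.14 for C1qa and -0.13 to 0.12 for Cfp. In the interaction they were -0.21 to 0.48 for C3, -0.35 to 0.039 for C4b, -0.099 to 0.18 for C3ar1 and -0.16 to 0.019 for C5ar1. The members held at least 585 counts in every library, and 28 of the 48 wider genes did not pass the filter on low counts.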

Other observations

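The libraries at the ends of the C1q and C3ar1 values also differed in macrophage markers, which were named after their values were seen. In IRF5-KO LT-HFD replicate 2, Cd163 (a scavenger receptor of resident-type macrophages) was at 179 CPM, the lowest of the 16 libraries, and Trem2 (a lipid-sensing receptor) was at 262 CPM, the highest. In WT ST-HFD replicate 2, which had the least C3ar1 (289 CPM), Cd163 was at 1633 CPM, the highest, and Trem2 was at 36.0 CPM, the lowest.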
